A study of Mus musculus with 6 samples.

Results

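Aldehyde dehydrogenases and retinoid binding proteins were followed through 9 mouse genes: Aldh1a1, Aldh1a2, Aldh1a3, Aldh1a7, Aldh2, Aldh3a1, Aldh3b1, Crabp1 and Crabp2. They were found by matching the RefSeq accession of each non-control probe to these genes, out of 20660 genes with a probe and a symbol. All 9 had a probe, 10 probes in all, and 8 of the 9 genes were measured well enough to be tested. RNA came from spheres, free-floating clusters of cells in serum-free culture, made from mammary tumors of FRS2beta knock-out mice (knockout) and of FRS2beta hetero mice (hetero). FRS2beta is an adaptor protein of receptor tyrosine kinases, encoded by Frs3. Spheres of both genotypes were grown in DMEM/F12 with B27, 20 ng/mL EGF, 20 ng/mL bFGF and 2 mg/mL heparin. Each genotype had 3 Cy3-labelled single-colour Agilent arrays, so that hetero, and not wild type, is the baseline of the comparison. The labels give no strain, age or tumor-driving allele, and nothing in them says that replicates came from separate mice or cultures. If they did not, the p-values below read technical spread alone.

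Aldehyde dehydrogenases oxidise aldehydes to acids. The enzymes ALDH1A1, ALDH1A2 and ALDH1A3 act on retinal and make retinoic acid, the vitamin A derivative that switches genes on through nuclear receptors. The cytosolic proteins CRABP1 and CRABP2 bind the retinoic acid that is formed. High aldehyde dehydrogenase activity is a widely used mark of stem-like and progenitor cells of the mammary epithelium and of mammary tumors, but the activity test reads an enzyme reaction and does not tell the genes apart, which the probes of an array do.

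Each array's processed signal had its 75th percentile at 465 to 487 in knockout and at 404 to 416 in hetero spheres, and 60.5% to 69.6% of probes on the knockout arrays and 60.4% to 61.3% on the hetero arrays were well above background. Values below are scaled signals, the processed signal of a probe divided by the 75th percentile of its array, so that 1 is the level of that percentile. Fold changes are knockout over hetero and come from a limma fit to the log2 scaled signals of 15838 genes, with p-values adjusted over all of them. Frs3 itself was well above background on 0 of 3 knockout arrays and on 1 of 3 hetero arrays, so the targeted gene does not check the labels here. Since the samples are bulk RNA, fewer cells of a type and less RNA per cell cannot be told apart in any result below.

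The family split by isozyme. Aldh1a3 was far higher and Aldh1a2 far lower in knockout spheres, Crabp2 was moderately higher, and the other 5 tested genes were lower by small amounts that depend on how the arrays are scaled. Every one of the 8 tested members was called at the adjusted p threshold of 0.05, with 2 higher and 6 lower in knockout, against 60.4% of all genes tested (27.8% higher and 32.6% lower). The genotypes did not overlap in any of the 8, against 68.9% of all genes. A called change of at least 2-fold was reached by 2 of the 8, Aldh1a3 and Aldh1a2, against 10.1% of all genes (6.59% higher and 3.52% lower). With such a large share of all genes called, a call by itself sets a member little apart, and the sizes of the changes carry more.

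**Figure D1:**
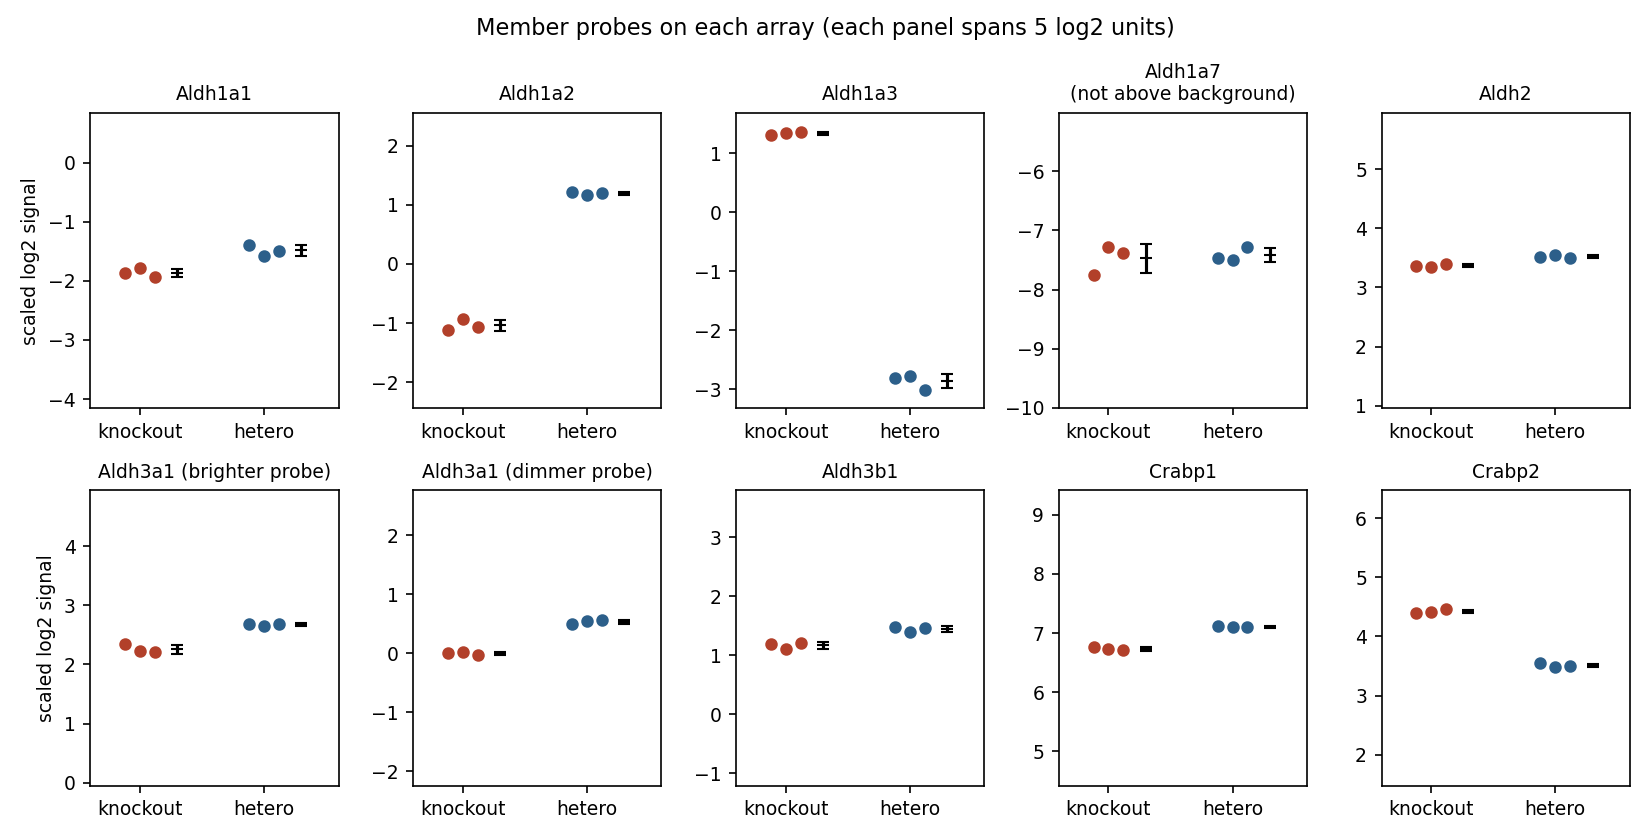
Scaled log2 signal (y axis) of the 10 member probes on the 3 knockout arrays (red) and the 3 hetero arrays (blue), with mean and SD beside each group. Each panel spans the same 5 log2 units around its own middle: the genotypes stand farthest apart for Aldh1a3, then for Aldh1a2 in the opposite direction, then for Crabp2, and Aldh1a7 was well above background on none of the arrays.

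Aldh1a3 encodes a retinal dehydrogenase that is known in the mammary gland from luminal progenitor cells. Its scaled signal was 2.47, 2.52 and 2.56 on the knockout arrays, against 0.143, 0.146 and 0.125 on the hetero arrays. The 3 arrays of each genotype lay close together and the groups were far apart, with the probe well above background on all 6. The mean was 2.52 ± 0.05 in knockout spheres and 0.138 ± 0.012 in hetero spheres (SD, n = 3 each), an 18.3-fold rise (log2 fold change 4.19 ± 0.07, SE, adjusted p = 6.49e-07). This was the 29th largest rise of the 15838 genes. With normexp background correction, which adds an offset and so shrinks the ratios of dim spots, the log2 fold change was 3.32.

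Aldh1a2 encodes a second retinal dehydrogenase, known above all from mesenchymal tissue of the embryo and from some myeloid cells. It went the other way. Its scaled signal was 0.462, 0.522 and 0.478 on the knockout arrays, against 2.33, 2.25 and 2.29 on the hetero arrays. The lowest hetero array thus stood well above the highest knockout array, and all 6 arrays were well above background. The mean was 0.487 ± 0.031 in knockout spheres and 2.29 ± 0.04 in hetero spheres (SD, n = 3 each), which is 4.70-fold lower in knockout (log2 fold change -2.23 ± 0.05, SE, adjusted p = 1.94e-06). This was the 98th largest fall of the 15838 genes.

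Aldh1a1 encodes the retinal dehydrogenase most often linked to the activity test in human cells. Its scaled signal was 0.274, 0.289 and 0.262 on the knockout arrays, against 0.383, 0.336 and 0.355 on the hetero arrays. The groups did not overlap, and the difference was small: 1.30-fold lower in knockout (log2 fold change -0.38 ± 0.06, SE, adjusted p = 0.00363) and 0.04 above 0 with spike-in scaling (adjusted p = 0.554). Aldh1a7, a rodent paralog of Aldh1a1 that lies beside it on chromosome 19, was well above background on none of the arrays. The median raw brightness of its spot was 33, 34 and 37 on the knockout arrays and 30.5, 32 and 37 on the hetero arrays, over a local background of 19, 19 and 21 on the knockout arrays and 19, 19 and 20 on the hetero arrays. No fold is given for it. Probe sequences were not used here, so that cross-hybridisation between the transcripts of these paralogs was not tested.

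The pair is shown by its promoters because the paralogs differ in whether they were detected. The 110 bases before the start of each, from RefSeq on GRCm38.p6, are chr19:20601858-20601967 on the plus strand for Aldh1a1, at the later of the 2 starts listed, and chr19:20727557-20727666 on the minus strand for Aldh1a7. Of the Aldh1a1 starts, the one with the fewest differences from Aldh1a7 was taken, so that the likeness given is the highest on offer. Capitals mark the 6 positions at which an ungapped comparison found different bases, and the other 104 (94.5%) are the same.
Aldh1a1: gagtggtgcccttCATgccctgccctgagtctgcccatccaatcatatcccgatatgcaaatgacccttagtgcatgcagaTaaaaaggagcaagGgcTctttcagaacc
Aldh1a7: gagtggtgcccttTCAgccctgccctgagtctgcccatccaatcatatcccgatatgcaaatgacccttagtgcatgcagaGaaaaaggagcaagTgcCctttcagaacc

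The 3 members outside the ALDH1A group act on other aldehydes, and each was slightly lower in knockout spheres at the 75th percentile scaling, but not with spike-in scaling. Aldh2, the mitochondrial enzyme that clears acetaldehyde, had scaled signals of 10.3, 10.2 and 10.6 on the knockout arrays, against 11.5, 11.7 and 11.2 on the hetero arrays. Its log2 fold change was -0.15 ± 0.03 (SE, adjusted p = 0.00573), the smallest of the members, and 63.0% of all genes tested had a larger change in either direction. The call was lost with median scaling (adjusted p = 0.192), and with spike-in scaling the log2 fold change was 0.27. Aldh3b1, which acts on fatty aldehydes, had 2.28, 2.14 and 2.31 on the knockout arrays, against 2.80, 2.61 and 2.75 on the hetero arrays. The groups stayed apart, at 1.21-fold lower in knockout (log2 fold change -0.28 ± 0.04, SE, adjusted p = 0.00303), and 0.14 above 0 with spike-in scaling.

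Aldh3a1, a dehydrogenase of fatty and aromatic aldehydes that is abundant in cornea and stomach, was the member with 2 probes. Its brighter probe had scaled signals of 5.06, 4.66 and 4.61 on the knockout arrays, against 6.46, 6.27 and 6.41 on the hetero arrays. Its dimmer probe had 1.01, 1.01 and 0.975 on the knockout arrays, against 1.41, 1.46 and 1.47 on the hetero arrays. Both were lower in knockout on every array. In the fit over all probes, of which 47.0% were called, their log2 fold changes were -0.42 ± 0.05 (SE, adjusted p = 0.00131) and -0.54 ± 0.03 (SE, adjusted p = 0.000155). In the gene fit Aldh3a1 was 1.34-fold lower (adjusted p = 0.000561), and with spike-in scaling its log2 fold change was -0.00096 (adjusted p = 0.986).

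The cellular retinoic acid binding proteins moved apart. Crabp2, whose protein is known to hand retinoic acid to its nuclear receptors, had scaled signals of 21.1, 21.3 and 22.0 on the knockout arrays, against 11.7, 11.2 and 11.3 on the hetero arrays. Every knockout array was above every hetero array, at 1.88-fold (log2 fold change 0.91 ± 0.03, SE, adjusted p = 5.89e-06), and 11.8% of all genes had a larger change. Crabp1, often described as holding retinoic acid for breakdown, had 109, 106 and 105 on the knockout arrays, against 140, 137 and 137 on the hetero arrays. Its probe was bright and not saturated on any array, and Crabp1 was 1.30-fold lower in knockout (log2 fold change -0.37 ± 0.02, SE, adjusted p = 0.000104), with a log2 fold change of 0.04 under spike-in scaling (adjusted p = 0.207).

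Scaling decides what can be said of the 5 small differences. Spike-in scaling, which sets the arrays level on the control spots of added RNA in place of the 75th percentile, shifted the median over all genes by 0.42 on the log2 scale, to 0.39. Set against the bulk of genes, Aldh1a1, Aldh2, Aldh3a1, Aldh3b1 and Crabp1 were thus lower in knockout, while against the spike-in RNA Aldh2 and Aldh3b1 were higher (adjusted p = 0.000719 and 0.0461) and the other 3 were not called. Aldh1a3, Aldh1a2 and Crabp2 kept their direction and their call under all 17 alternative settings, with log2 fold changes of 3.32 to 4.61, -2.28 to -1.81 and 0.89 to 1.33.

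**Figure D2:**
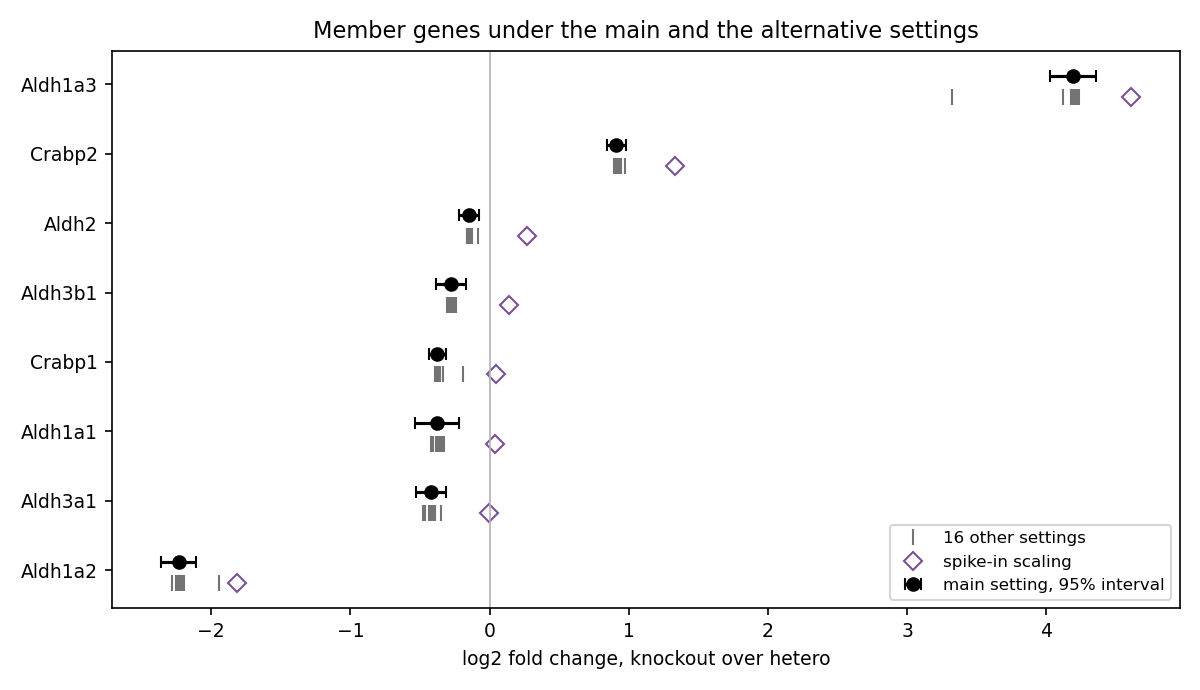
Log2 fold change, knockout over hetero (x axis), of the 8 tested members: the black points are the main setting with 95% intervals, the diamonds spike-in scaling and the grey ticks the 16 other settings. Aldh1a3, Crabp2 and Aldh1a2 stay on their side of 0 throughout, while the diamonds of Aldh1a1, Aldh2, Aldh3b1 and Crabp1 lie above 0 and that of Aldh3a1 at 0.

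Of the 14 other aldehyde dehydrogenases, 13 were tested and 8 were lower and 2 higher in knockout, with a median log2 fold change of -0.37, beside -0.03 over all genes, and 6 lower and 6 higher with spike-in scaling. Aldh4a1, a mitochondrial enzyme of proline breakdown, was the only called one at 2-fold or more. It had scaled signals of 4.36, 4.81 and 5.14 on the knockout arrays, against 9.49, 9.51 and 9.59 on the hetero arrays. It was 2.00-fold lower in knockout (adjusted p = 8.16e-05). Aldh5a1, which clears succinic semialdehyde, rose 1.73-fold (adjusted p = 3.01e-06) and Aldh1b1 rose by 0.22 ± 0.02 log2 units (SE, adjusted p = 0.000665). These 2 are named after their values were seen, as the list's only rises. Aldh3b2 was well above background on none of the arrays.

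Genes for the handling of retinoids went both ways. Among 8 tested genes for carriers, uptake and storage, 2 were higher and 2 lower, with a median log2 fold change of -0.05, and 6 higher and 1 lower with spike-in scaling. Stra6, the cell surface receptor that takes up retinol, had 0.445, 0.447 and 0.479 on the knockout arrays, against 0.190, 0.176 and 0.193 on the hetero arrays. The rise was 2.45-fold (log2 fold change 1.29 ± 0.05, SE, adjusted p = 1.3e-05) and 0.81 log2 units with normexp. Rbp4, the protein that carries retinol outside cells, had 5.59, 5.46 and 5.66 on the knockout arrays, against 15.5, 15.3 and 15.8 on the hetero arrays, and was 2.79-fold lower (adjusted p = 9.09e-07). The receptor gene was thus higher and the carrier gene lower in the same spheres.

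Enzymes that convert retinol and retinal into each other, or cleave carotene, were lower in 7 and higher in 2 of 16 tested genes (median log2 fold change -0.18), and lower in 2 and higher in 10 with spike-in scaling. With median scaling 3 were lower and 2 higher. Adh1, an alcohol dehydrogenase that also oxidises retinol, led the falls, with 1.82, 1.80 and 1.74 on the knockout arrays, against 9.71, 8.66 and 8.81 on the hetero arrays. It was 5.07-fold lower (log2 fold change -2.34 ± 0.05, SE, adjusted p = 1.67e-06), a change close in size to that of Aldh1a2, which acts on the next step.

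Both tested members of the CYP26 family, which hydroxylate retinoic acid, were higher in knockout spheres. Cyp26a1 had scaled signals of 0.422, 0.464 and 0.465 on the knockout arrays, against 0.113, 0.112 and 0.124 on the hetero arrays. This was a 3.88-fold rise (log2 fold change 1.96 ± 0.06, SE, adjusted p = 5.9e-06), and 1.01 log2 units with normexp. Cyp26b1 had 4.64, 4.95 and 4.79 on the knockout arrays, against 2.29, 2.11 and 2.43 on the hetero arrays, a 2.11-fold rise (adjusted p = 4.66e-05). Cyp26c1 was well above background on none of the arrays.

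Receptors and coregulators showed small changes: 8 of 14 were lower and 2 higher, none by 2-fold (median log2 fold change -0.17), and with spike-in scaling 0 were lower and 10 higher. With median scaling 5 were lower and 1 higher. With the mean of a gene's probes 7 were lower and 4 higher (median log2 fold change -0.08). Rarb, a retinoic acid receptor gene that is itself a textbook target of retinoic acid, had 1.86, 1.92 and 1.92 on the knockout arrays, against 1.95, 1.87 and 1.94 on the hetero arrays. The groups overlapped, and the log2 fold change was -0.02 with a 95% interval of -0.09 to 0.05 (adjusted p = 0.625). That interval holds for the main setting alone. Spike-in scaling shifted the median over all genes by 0.42 log2 units. Its counts of higher genes by list, beside 41 over all pathway lists together, place Rarb among the genes called higher. The value of Rarb with spike-in scaling is not given here. Of 17 tested genes known as retinoic acid targets, 7 were higher and 6 lower (median log2 fold change 0.13), and 13 higher and 1 lower with spike-in scaling. Some of these genes also stand in the lists above. Besides Cyp26a1, Cyp26b1 and Stra6, the rule for naming took Ret, a receptor tyrosine kinase gene, and Rarres2, which encodes the attractant chemerin. Ret was well above background on all 3 knockout arrays and on none of the hetero arrays. With its hetero values raised to the lowest well-above-background signal of each array, Ret was 2.24-fold higher in knockout. It passed the filter on dim probes through the knockout arrays alone, so its call is no support, and 6 targets were higher and 6 lower where all 6 arrays had to be well above background. With normexp its log2 fold change was 0.07. Rarres2 was 2.84-fold lower (adjusted p = 3.44e-06).

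Cyp26a1 and Rarb are set side by side because their promoters hold the same searched letters. In the main setting, where the brightest probe stood for each gene, Cyp26a1 passed the test and Rarb did not. Cyp26a1 and Rarb were each called higher with spike-in scaling. With the mean of a gene's probes 4 genes of the receptor list were higher in place of 2, and whether Rarb is among them is not given here. The difference between their changes was not tested. Both are known to respond to retinoic acid through a direct repeat near the start. The letters searched below spell such a repeat as it stands in these genes, so that finding them here was no test. The letters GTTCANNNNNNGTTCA, on either strand and with N for any base, occurred in the 250 bases before the start in 22 of 32851 mouse promoters (0.067%) of RefSeq on GRCm38.p6. Among the 58 genes of the pathway lists with a promoter in that set, only Cyp26a1 and Rarb held them, and none of the 5 members with one did (Aldh1a1, Aldh1a2, Aldh1a7, Aldh3b1 and Crabp1). The stretch around the match is chr19:37697706-37697807 on the plus strand for Cyp26a1, with the match 32 to 17 bases before the start on the opposite strand. For Rarb it is chr14:16575477-16575598 on the minus strand, with the match 52 to 37 bases before the start on the gene's own strand. Capitals mark the match.
Cyp26a1: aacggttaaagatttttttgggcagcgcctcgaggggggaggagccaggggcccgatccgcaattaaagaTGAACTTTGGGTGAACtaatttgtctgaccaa
Rarb: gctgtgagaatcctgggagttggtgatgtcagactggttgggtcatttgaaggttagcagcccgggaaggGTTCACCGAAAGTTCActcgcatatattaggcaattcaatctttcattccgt
A match of letters is a description of the sequence and was not tested as a binding site. The consensus form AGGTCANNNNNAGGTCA occurred in 3 of the 32851 promoters and in none of these genes.

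**Figure D3:**
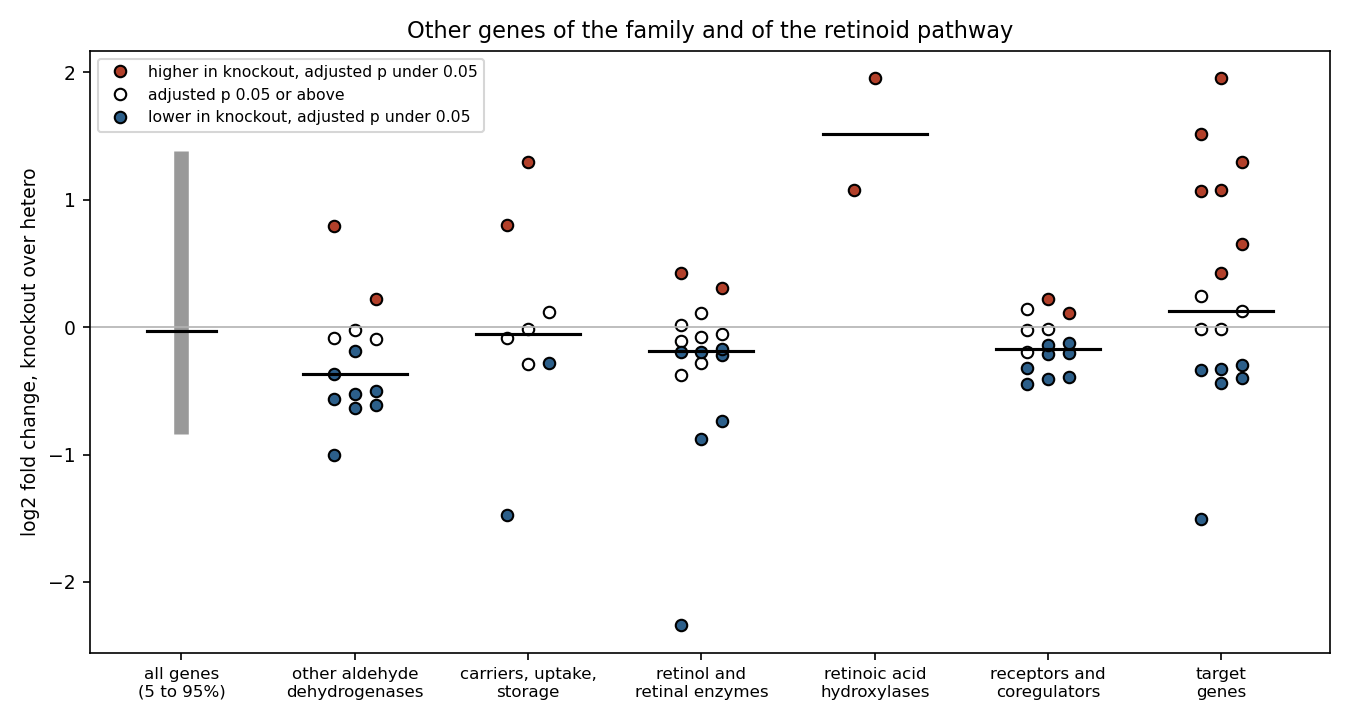
Log2 fold change, knockout over hetero (y axis), of each tested gene of 6 lists around the members, with the list median as a line and the 5th to 95th percentile of all genes (-0.84 to 1.39) as a grey bar. Red (higher) and blue (lower) points passed the test; those near 0 turn with spike-in scaling, while the hydroxylases Cyp26a1 and Cyp26b1 stand above 1 and Adh1 below -2.

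Markers of other cell types moved with the 2 large member changes. Beside the rise of Aldh1a3, 10 of 11 luminal epithelial markers were at least 2-fold higher and 1, Kit, was lower but not called with spike-in scaling (median log2 fold change 3.44, or 10.9-fold). Their summed scaled signal was 133 to 136 on the knockout arrays and 14.6 to 15.0 on the hetero arrays. Of 6 tested basal markers, 5 were higher and none lower (median 1.85), with sums of 92.4 to 92.8 on the knockout arrays and 21.0 to 21.2 on the hetero arrays. Aldh1a3 rose more than each of these 17 markers, the nearest being the keratin gene Krt19 at 4.08 log2 units. Every tested luminal marker was well above background on all 6 arrays, and the basal marker Myh11 was not tested. The part of these markers in the rise of Aldh1a3 was not tested.

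Beside the fall of Aldh1a2, all 11 tested macrophage markers were lower (median -1.90, which is 3.73-fold), with sums of 9.95 to 9.99 on the knockout arrays and 30.7 to 30.9 on the hetero arrays. Fibroblast markers were lower in 6 and higher in 2 of 9 (median -0.50), with sums of 1681 to 1739 on the knockout arrays and 2151 to 2373 on the hetero arrays. Endothelial markers were lower in 3 and higher in 2 of 6 (median -0.04, sums of 16.5 to 17.7 on the knockout arrays and 21.9 to 22.7 on the hetero arrays). Most of each endothelial sum came from the bright gene Kdr, at 14.2 to 15.3 on the knockout arrays and 19.6 to 20.4 on the hetero arrays. Such sums read mainly the brightest genes of a list. Adipocyte markers were lower in 3 of 5 (median -0.27, sums of 9.75 to 9.85 on the knockout arrays and 12.5 to 13.0 on the hetero arrays), with Cidec not well above background on any array. Cd68, a macrophage marker, had no probe matched by accession. With spike-in scaling 10 macrophage, 4 fibroblast, 0 endothelial and 1 adipocyte markers were lower and 0, 3, 4 and 2 higher, so that the endothelial and adipocyte medians turn positive (0.38 and 0.15) and the fibroblast median nears 0 (-0.085), while the macrophage median stays at -1.48. Aldh1a2 fell by more than each fibroblast, endothelial and adipocyte marker tested and lay within the range of the macrophage markers (-3.30 to -0.54). The part of these markers in its fall was not tested.

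**Figure D4:**
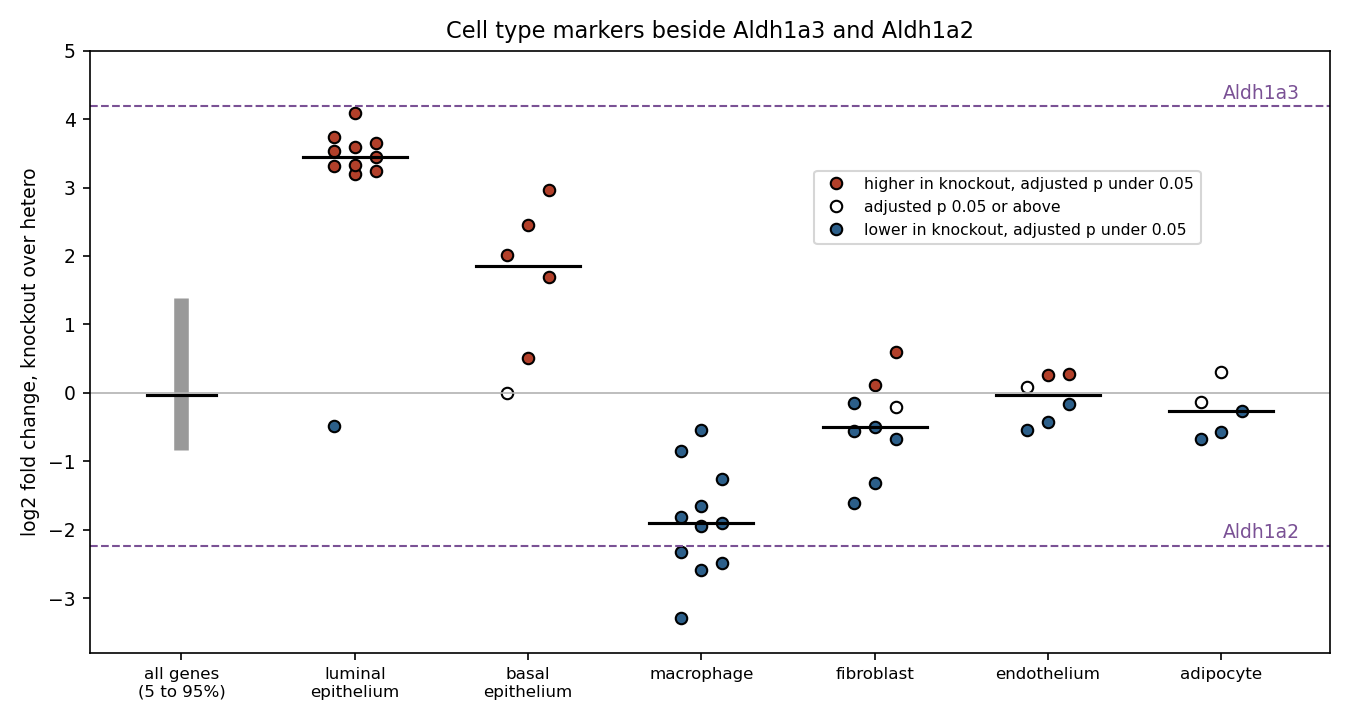
Log2 fold change, knockout over hetero (y axis), of cell type markers by list, with list medians as lines and the 5th to 95th percentile of all genes as a grey bar. The dashed lines give Aldh1a3 at 4.19, above all luminal and basal markers, and Aldh1a2 at -2.23, within the macrophage markers and below all those of the other lists.

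The genes most like these 2 members over the 6 arrays were sought by the root mean square distance between log2 signals centred on each gene's mean. Nearest to Aldh1a3 were the chloride channel gene Clic6 (distance 0.057, log2 fold change 4.11), BC006965 (0.091, 4.07) and the luminal keratin gene Krt19 (0.099, 4.08), and no other gene lay within 0.1. Nearest to Aldh1a2 were Marco, a scavenger receptor gene of macrophages (0.035, -2.28), Lrrc17 (0.042, -2.26) and the matrix protein gene Spon2 (0.046, -2.28), 3 of 24 genes within 0.1. With 2 groups of 3 arrays, such a distance mostly reads the size of the difference between the genotypes.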

How the data were processed

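Agilent Feature Extraction 10.7.3.1 gave the spot intensities, per the submitters' processing notes. The intensity used is the deposited processed signal. On spots well above background it was 0.835 to 1.27 times the background-subtracted signal beside it in the files, and no label or header used here describes that adjustment. The deposited value table holds intensities of 46598 probes. Each of its columns is the processed signal over 1 constant, within 1% for 100% of probes spotted once, on a linear, uncentred scale.

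Control spots and 102 to 129 outlier-flagged spots per array were left out, and spots of a probe were averaged on the log2 scale. Probes were named by RefSeq accession with a mouse gene table on GRCm38.p6 (27235 probes). Log2 signals were scaled by each array's 75th percentile; probes well above background on at least 3 of 6 arrays were kept, and the brightest probe stood for each gene. Genotypes were compared with limma 3.58.1 in R 4.3.3 (lmFit, eBayes, no covariate, Benjamini-Hochberg, threshold 0.05), after a test on simulated data. Normexp (offset 50) used the median spot signal, as the files hold no mean signal column. Named genes follow a rule: all members and the called genes of each pathway list at 2-fold or more (up to 4 per direction). The rule also takes the 3 genes nearest to the largest rise and fall. Aldh5a1, Aldh1b1, Rarb, Frs3, Kit, Kdr and the genes that were not tested are named outside it. Members, lists and settings were chosen with earlier results of these data known. A median SD of 0.042 between arrays of a genotype stood beside 0.067 between spots of an array. The number of arrays limits the precision. All lay on 1 slide and 1 scan.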

Additional observations from a re-analysis of the deposited data

How the results depend on the processing

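The 8 member genes were refitted under 17 alternatives each, and 130 of these 136 refits kept direction and call. Spike-in scaling changed most: 11490 genes were higher and 1260 lower in knockout, against 4403 and 5160 with the 75th percentile, so that the share of higher genes among those called was 90.1% and not 46.0%. With it 4 members were higher and 1 lower, 41 genes of the pathway lists were higher and 10 lower (13 and 31 with the 75th percentile), and the log2 fold changes were 0.040 for Aldh1a1, 0.27 for Aldh2, -0.00096 for Aldh3a1, 0.14 for Aldh3b1 and 0.045 for Crabp1, by the construction of a common shift. With median scaling Aldh2 lost its call at -0.13. Leaving out each array in turn changed no call of a member (highest adjusted p 0.0240, for Aldh2), and the counts ran from 3894 to 4108 genes higher and from 4578 to 4873 lower. The replicate numbers did not pair the samples (correlations of deviations -0.12, -0.018 and -0.0056); with the replicate block 3932 genes were higher and 4579 lower, and no member changed its call. Slide row as a block changed no member's call. Slide column as a random block changed none either, but each slide column held 1 genotype and the fitted correlation within a column was -0.40. The median SE over all genes was then 0.033, against 0.041 in the main setting, so this refit does not test an effect of the column. Signals near background limit Aldh1a7, which has no fold.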
